A study of Mus musculus with 6 samples.

Results

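The late course after partial hepatectomy in mouse liver lacking OGA was described by setting the OGA-KO library of day 28 against the OGA-KO library of day 14. Its members were the genes with at least 1 CPM, the count scaled to the size of its library, in either of these 2 libraries, 11795 of the 12027 rows in the count table. Of these, 26 genes of an exocrine pancreas list were set apart, which left 11769 genes. Partial hepatectomy takes out a portion of the liver, and the lobes that are left regrow over the following days.

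RNA of whole liver was sequenced from male mice of 8 weeks on a C57BL/6 background, all of which had undergone the operation. The OGA-KO mice are labelled OGA-/-, with the deletion placed in hepatocytes by the series text, and the controls carry the floxed alleles alone, labelled OGAfl/fl. The driver of the deletion was not given in the sources used here. Each of these 4 groups, OGA-KO and OGA control at 14 and at 28 days, was 1 library made from equal amounts of RNA of 3 mice. A pool averages its mice, so no spread between animals could be measured, and the hour of day and the feeding state at collection were not given in the sources used here. The series also holds an OGT-KO library and its control at 28 days, which enter none of the ratios.

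O-GlcNAc is a single sugar attached to serine and threonine residues of nuclear and cytosolic proteins. OGT attaches it and OGA removes it, so that a cell without OGA cannot clear the mark in the usual way. Many transcription factors carry O-GlcNAc, among them proteins of the circadian clock, a feedback loop in which BMAL1 with CLOCK or NPAS2 activates the genes of its own repressors. In liver this loop sets a daily rhythm in a large number of metabolic genes. The acute phase response, also prominent in liver, is the rise of secreted defence proteins such as serum amyloid A in reply to cytokines.

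The 4 libraries held 26504375 to 29327722 counts, and their composition factors (TMM) lay between 0.987 and 1.01. The 10 genes with the most counts took 17.9% to 18.6% of each library. Oga (ENSMUSG00000025220) had 282 and 317 counts in OGA-KO at 14 and 28 days, below the 1525 and 1760 counts of the controls, which is the direction the labels give. The 15 hepatocyte identity genes had a median log2 ratio of -0.0049 between the OGA-KO libraries, and none of them was 2-fold apart.

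The OGA-KO library of day 28 stood apart from the other 3 by transcripts of the exocrine pancreas, the digestive enzyme gland that lies beside the liver. These genes summed to 267 CPM in that library, against 25.2 CPM in OGA-KO at 14 days and 28.3 and 25.5 CPM in the controls at 14 and 28 days. Of 44 listed genes, 26 had a row, and 25 of these were at least 2-fold higher at 28 days. Counts were 0 in each of the other 3 OGA libraries for 20 of the 26. These 20 met the 1 CPM rule only through the library where they are high. Both shares thus describe that library and are no independent evidence. The chymotrypsinogen gene Ctrb1 had 904 counts and the lipase gene Pnlip had 727, both against 0, which gives at least 330-fold and at least 265-fold higher levels against a floor of 3 counts. The exception was Cela1, an elastase gene with 715 counts in OGA-KO already at 14 days and 1124 at 28 days. Of all rows of the table, 18 had counts in this library alone among the 6 of the series. No gene of the endocrine pancreas list had a row. As the only library of its group, OGA-KO at 28 days could not be left out, and every ratio below rests on it.

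With 1 library a side, no test of the OGA-KO course was possible and no p-value for it is given. Ratios are log2 of day 28 over day 14, computed on CPM with TMM library sizes and a prior count of 2, and the range after each ratio is its 95% counting interval. These intervals cover counting error only, because 1 pooled library a side holds no spread between libraries. The reads carry no molecular identifiers and several can come from 1 molecule, so the intervals can be too narrow even for counting error. A gene was counted as 2-fold apart where the ratio was at least 2-fold and the higher library had at least 1 CPM.

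Most genes lay close to the same level at both times. The median log2 ratio of the OGA-KO course was -0.0047, and 90% of genes lay between the 5th percentile at -0.41 and the 95th at 0.47. The 2-fold rule was met by 129 of 11769 genes (1.1%), with 88 higher at 28 days (0.748%) and 41 lower (0.348%). Just inside the rule were Neurl2 at 1.01 and Ppl at 1.02 on the higher side, and just outside it were Gbp2b and Igfbp1, the latter at -0.998. The control course, measured over the same interval in libraries that it does not share with OGA-KO, held 107 such genes among 11692 (0.915%), with 61 higher (0.522%) and 46 lower (0.393%).

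Some of these genes were common to the 2 courses, a larger share than among all genes. Higher in both were 7 genes, which is 7.95% of the 88 in OGA-KO and 11.5% of the 61 in control: Dbp, Lcn2, Mup15, Orm2, Rgs16, Saa1 and Saa2. Of all genes, 0.522% were 2-fold higher in control and 0.748% in OGA-KO. Lower in both were Dab1 and Slpi, which is 4.88% of the 41 and 4.35% of the 46. Of all genes, 0.393% were 2-fold lower in control and 0.348% in OGA-KO. As a description across 11562 genes, which do not stand for replicates, the courses had a Pearson's r of 0.144 and a Spearman's rho of 0.125. The difference between the courses was at least 2-fold in 345 of 11899 genes (2.9%), with 186 higher in OGA-KO (1.56%) and 159 lower (1.34%).

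**Figure D1:**
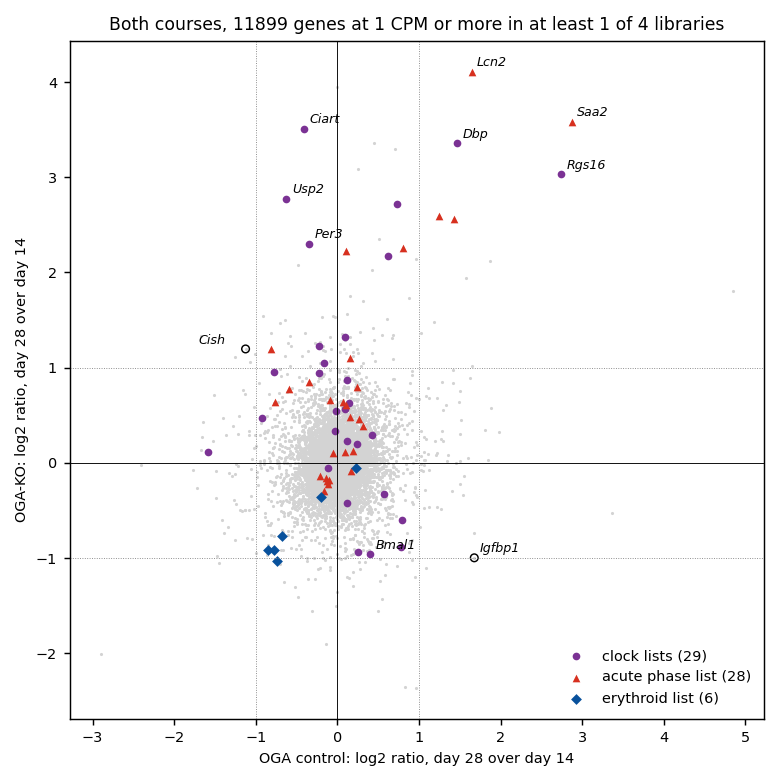
Log2 ratio of day 28 over day 14 in OGA control (horizontal) and OGA-KO (vertical) for 11899 genes outside the pancreas list; purple circles are the 29 clock genes, red triangles the 28 acute phase genes, blue diamonds the 6 erythroid genes, open circles Cish and Igfbp1, and dotted lines mark 2-fold. Ciart, Usp2 and Per3 sit high on the vertical axis and left of 0 on the horizontal one, while Saa2, Rgs16, Lcn2 and Dbp lie beyond the 2-fold line in both courses.

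The test made of time was of the day effect over both OGA genotypes. Each gene has 1 residual degree of freedom, which comes from the difference between its courses. The fit draws this spread toward that of all genes, so each p-value also rests on the spread of other genes. By edgeR's quasi-likelihood test, 1 of 11996 genes passed a Benjamini-Hochberg adjusted p of 0.05 (0.00834%), and 812 had an unadjusted p under 0.05. That gene was Rgs16 (ENSMUSG00000026475), a regulator of G protein signalling with a daily rhythm in liver. It had 115 counts at 14 days and 875 at 28 days in OGA-KO, and 16 and 126 in control. Rgs16 rose by 3.01 on average over both courses (edgeR adjusted p = 0.033), with 3.03 (2.77 to 3.35) in OGA-KO and 2.74 (2.13 to 3.73) in control. Saa2, next in order, had an edgeR adjusted p of 0.0629. DESeq2's Wald test passed 15 of 7830 genes (0.192%), 11 higher and 4 lower. This test speaks of what both genotypes share, and a difference between the courses has no test here.

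Of the 12 highest ratios among genes with at least 10 CPM, 6 were of clock genes: Ciart, Dbp, Rgs16, Usp2, Bhlhe41 and Per3. Of 29 genes on 3 clock lists, 10 were at least 2-fold higher at 28 days in OGA-KO and 0 were 2-fold lower, where 0.748% and 0.348% of all genes were. In control, 2 of the 29 were 2-fold higher and 1 was lower, where 0.522% and 0.393% of all genes were. The difference between the courses was at least 2-fold upward in 13 of the 29 and downward in 4, against 1.56% and 1.34% of all genes. Ratios of opposite sign in the 2 genotypes were found in 17 of the 29, and in 44.5% of all 11899 genes, so that count by itself does not set the clock genes apart. The OGT control library, also of floxed mice at 28 days but of another line and with a total of 21852873 counts, bears on what is high at that time. It had 215 counts of Ciart, 1133 of Dbp and 2183 of Rgs16, each above the OGA control of 28 days, and for Rgs16 also above OGA-KO. Usp2 with 171 and Per3 with 135 counts were nearer to the OGA control. High values of some clock genes at 28 days were thus not particular to OGA-KO. The lists were chosen with earlier results of these data known, so these counts describe the libraries and are no independent evidence.

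In the activator limb of the loop, 3 of 5 genes had ratios below 0 in OGA-KO. Bmal1, the gene of the activator common to both activating pairs, had 537 counts at 14 days and 252 at 28 days in OGA-KO, and 602 and 848 in control. Its ratio was -0.96 (-1.18 to -0.74) in OGA-KO and 0.40 (0.25 to 0.55) in control, so that the lowest and the highest of its 4 values were both at 28 days. Npas2, whose protein pairs with BMAL1, went from 139 to 68 counts in OGA-KO (-0.88, -1.34 to -0.47) and from 197 to 364 in control (0.78, 0.54 to 1.05). Clock, the other partner, had 1260 and 862 counts in OGA-KO against 1302 and 1514 in control. Rora, a nuclear receptor gene whose protein activates Bmal1, had a ratio of 0.19 in OGA-KO and 0.23 in control. The 5 genes of this limb had a median of -0.42 in OGA-KO and 0.40 in control.

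The repressor limb went the other way in OGA-KO for 9 of its 10 genes, with a median of 0.79 against -0.01 in control. Ciart (ENSMUSG00000038550), whose protein represses the CLOCK and BMAL1 pair, had 48 counts at 14 days and 520 at 28 days in OGA-KO, and 23 and 18 in control. Among the 4 OGA libraries only that of OGA-KO at 28 days was high, and the ratio was 3.51 (3.14 to 4.02), or 11.4-fold. The difference from the control course was 3.92 (2.93 to 4.91), the highest among genes with at least 10 CPM in 1 of the 4 libraries. Per3, a period gene, had 165 and 752 counts in OGA-KO (2.30, 2.07 to 2.57) and 109 and 91 in control (-0.35, -0.77 to 0.06). Bhlhe41, which encodes a repressor that competes for the same DNA element, had 54 and 335 counts in OGA-KO and 33 and 60 in control.

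Per1 and Per2, the other period genes, followed with smaller ratios. Per2 had 377 and 809 counts in OGA-KO (1.23, 1.05 to 1.41) and 384 and 349 in control. Per1 had 781 and 1382 counts in OGA-KO (0.95, 0.82 to 1.08) and 562 and 349 in control (-0.78, -0.98 to -0.59), so its difference between the courses was 1.73. Cry2, Bhlhe40, Nr1d2 and Nr1d1 had ratios of 0.62, 0.57, 0.54 and 0.33 in OGA-KO, and between -0.03 and 0.14 in control. Cry1, a cryptochrome gene, was the exception of this limb: it had 288 and 173 counts in OGA-KO (-0.60, -0.89 to -0.33) and 269 and 500 in control (0.79, 0.58 to 1.02). Cry1 was thus lower at 28 days together with Bmal1 and Npas2, and the same 3 genes were higher in control.

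**Figure D2:**
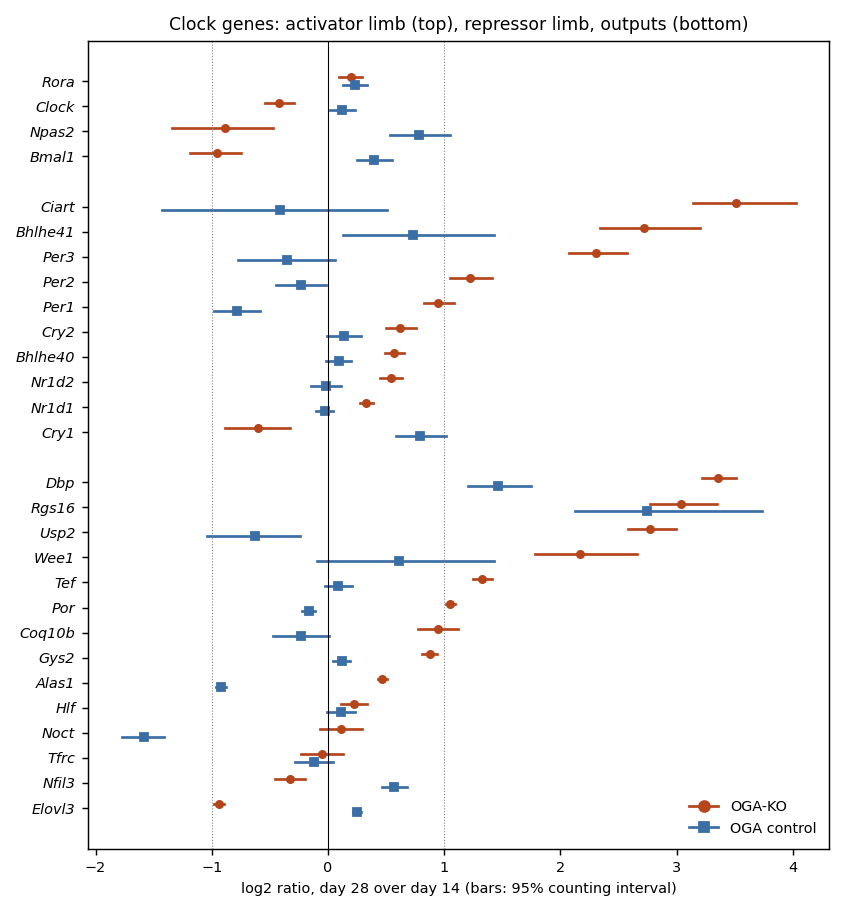
Log2 ratio of day 28 over day 14 for 28 of the clock genes, with the activator limb on top, the repressor limb in the middle and the outputs at the bottom; red circles are OGA-KO, blue squares OGA control, bars the 95% counting interval, and dotted lines mark 2-fold. Bmal1, Npas2 and Cry1 lie left of 0 in OGA-KO and right of it in control, while Ciart, Per3 and Usp2 show the opposite.

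Promoter sequences are shown for 4 of these genes, because the loop is known to act through a short DNA element, the E-box CACGTG, to which the activator pair binds, and through the D-box, to which the proteins of Dbp, Tef and Hlf bind. Sequences are the 250 bases before the RefSeq start of the gene on build GRCm38.p6, written 5′ to 3′ on the gene's strand, with the motif in capitals; the count table was made on mm39 and gives no coordinates. Ciart and Bhlhe41 were 2-fold higher at 28 days in OGA-KO and hold E-boxes, Cry1 was lower and also holds one, and Per3 holds D-boxes only.
Ciart (chr3:95882229-95882478, minus strand): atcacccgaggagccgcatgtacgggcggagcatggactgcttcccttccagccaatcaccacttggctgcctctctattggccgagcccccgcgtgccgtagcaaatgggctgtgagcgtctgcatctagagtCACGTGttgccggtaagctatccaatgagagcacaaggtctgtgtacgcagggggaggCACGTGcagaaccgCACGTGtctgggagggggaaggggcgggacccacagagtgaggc
Bhlhe41 (chr6:145865421-145865670, minus strand): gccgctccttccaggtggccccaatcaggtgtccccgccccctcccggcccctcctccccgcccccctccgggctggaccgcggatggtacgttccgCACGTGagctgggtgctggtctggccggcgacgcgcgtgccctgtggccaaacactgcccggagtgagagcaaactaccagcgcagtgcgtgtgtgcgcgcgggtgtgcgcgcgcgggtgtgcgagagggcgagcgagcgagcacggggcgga
Cry1 (chr10:85185055-85185304, minus strand): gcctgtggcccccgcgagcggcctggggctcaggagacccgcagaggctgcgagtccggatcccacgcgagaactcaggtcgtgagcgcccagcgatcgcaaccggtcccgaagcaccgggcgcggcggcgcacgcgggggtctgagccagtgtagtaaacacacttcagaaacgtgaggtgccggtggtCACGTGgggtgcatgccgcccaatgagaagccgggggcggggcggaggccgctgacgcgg
Per3 (chr4:151044666-151044915, minus strand): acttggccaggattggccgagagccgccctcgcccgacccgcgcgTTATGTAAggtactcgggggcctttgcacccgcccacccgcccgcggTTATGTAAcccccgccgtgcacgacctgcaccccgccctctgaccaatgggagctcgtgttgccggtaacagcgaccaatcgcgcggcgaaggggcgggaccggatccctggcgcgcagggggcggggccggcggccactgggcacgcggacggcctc

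Ciart held 3 E-boxes, whose first bases lie at -116, -58 and -44 from the start, Bhlhe41 held 1 at -153, and Cry1 held 1 at -60. The 2 D-boxes of Per3, in the form TTATGTAA, lie at -205 and -158. Motifs were searched on both strands over the 250 bases before the start, as CACGTG and as TTATGTAA or TTACGTAA, which do not overlap each other here. Of the 29 clock genes, 23 had an entry, and 6 of these 23 held an E-box and 2 a D-box. Among all 27025 genes with an entry, 6.86% held an E-box and 1.10% a D-box. Of the 10 clock genes that were 2-fold higher, 8 had an entry, 3 of which held an E-box and 1 a D-box. Tef was the other gene of these 3, and Per1 and Coq10b were the others of the 6. A match is a description of the letters in this window, not evidence of binding.

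The outputs of the clock, genes driven by the loop or by its targets, had a median of 0.91 in OGA-KO and 0.10 in control. Dbp, which encodes a transcription factor of the D-box, had 411 counts at 14 days and 3867 at 28 days in OGA-KO, and 156 and 463 in control. It was higher at 28 days in both genotypes, by 3.36 (3.22 to 3.51) in OGA-KO and 1.46 (1.21 to 1.75) in control. Tef, a related factor, had 1846 and 4239 counts in OGA-KO (1.33, 1.25 to 1.41) and 1126 and 1281 in control (0.09, -0.03 to 0.21). Hlf, the other related factor, had ratios of 0.23 and 0.11, so that the 3 D-box activators had unequal ratios in OGA-KO.

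Usp2, a deubiquitinase gene with a daily rhythm, had 225 and 1419 counts in OGA-KO (2.77, 2.58 to 3.00) and 131 and 90 in control (-0.63, -1.04 to -0.24). Wee1, whose kinase holds back entry into mitosis, had 55 and 233 counts in OGA-KO and 25 and 42 in control. Por, which supplies electrons to the microsomal P450 enzymes, had 7399 and 14052 counts in OGA-KO (1.05, 1.01 to 1.10) and 5561 and 5294 in control. All 3 were 2-fold higher in OGA-KO, and none of them was in control. Alas1, the first enzyme of haem synthesis, had 8742 and 11060 counts in OGA-KO (0.47) and 11681 and 6589 in control (-0.92). Noct, which encodes a rhythmic phosphatase, hardly differed in OGA-KO at 515 and 509 counts, whereas control had 954 and 338 (-1.59, -1.78 to -1.41).

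Of the 14 outputs, 3 had ratios below 0 in OGA-KO: Nfil3, Elovl3 and the transferrin receptor gene Tfrc, the last at -0.05 (-0.23 to 0.13). Nfil3, a repressor of the D-box, had 1153 and 839 counts in OGA-KO (-0.33, -0.46 to -0.20) and 1123 and 1781 in control (0.57, 0.46 to 0.68). Elovl3, a fatty acid elongase gene that is also higher in male liver, had 14063 and 6723 counts in OGA-KO (-0.94, -0.98 to -0.89) and 13835 and 17558 in control. Nfil3 and Elovl3 had ratios of opposite sign in the 2 genotypes, as Bmal1, Npas2 and Cry1 did.

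The acute phase list was the other group with many high ratios. Of its 28 genes, 8 were at least 2-fold higher at 28 days in OGA-KO, against 0.748% of all genes, and 0 were 2-fold lower, against 0.348%; 21 had ratios above 0. Its median was 0.63 in OGA-KO and 0.10 in control, where 4 genes were 2-fold higher, against 0.522% of all genes, and 0 lower, against 0.393%. The difference between the courses was at least 2-fold upward in 9 of the 28 and downward in 0, against 1.56% and 1.34% of all genes.

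Lcn2 (ENSMUSG00000026822), which encodes lipocalin, a protein that binds bacterial iron carriers, had 457 counts at 14 days and 7253 at 28 days in OGA-KO, and 738 and 2470 in control. Its ratio of 4.11 (3.98 to 4.26), or 17.3-fold, was the highest of the OGA-KO course among genes with at least 10 CPM, and control had 1.64 (1.53 to 1.77). Saa2, a serum amyloid A gene, had 1454 and 15964 counts in OGA-KO (3.58, 3.51 to 3.66) and 2348 and 18362 in control (2.87, 2.81 to 2.93). Saa1 had 6020 and 32609 counts in OGA-KO (2.57) and 8075 and 23183 in control (1.43). Both OGA-KO values at 14 days were the lowest of the 4, and the high values were at 28 days in both genotypes. Because Saa1 and Saa2 are nearly identical, reads can be split between them, so the single values are uncertain; summed, they gave 2.83 in OGA-KO and 1.90 in control.

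Of the orosomucoids, plasma carrier proteins, Orm2 and Orm3 were 2-fold higher at 28 days in OGA-KO. Orm2 had 1548 and 8524 counts in OGA-KO (2.59, 2.51 to 2.67) and 1486 and 3752 in control (1.24, 1.15 to 1.33). Orm3 had 311 and 1342 counts in OGA-KO (2.23, 2.06 to 2.42) and 337 and 386 in control. The summed ratio of Orm1, Orm2 and Orm3, which are close copies, was 0.73 in OGA-KO and 0.23 in control, since Orm1, with a ratio of 0.48, held most of the counts. Il1rn, the antagonist of the interleukin 1 receptor, had 47 and 213 counts in OGA-KO and 33 and 63 in control.

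Steap4 and the metallothionein gene Mt2 completed the 8. Steap4, a metal reductase gene, had 2781 and 5471 counts in OGA-KO (1.10) and 3364 and 3997 in control (0.15). Mt2 had 680 and 1432 counts in OGA-KO (1.20, 1.07 to 1.34) and 756 and 457 in control (-0.82, -0.99 to -0.65), and Mt1 had 0.85 and -0.35. Hamp, which encodes the iron hormone hepcidin, had 8727 and 12472 counts in OGA-KO (0.64, 0.60 to 0.68) and 10570 and 6625 in control (-0.77, -0.81 to -0.72). Socs3 had ratios of 0.78 in OGA-KO and -0.60 in control. For Mt2, Mt1, Hamp and Socs3 the 2 genotypes thus had ratios of opposite sign. Such opposite signs were found in 7 of the 28 acute phase genes, a smaller share than the 44.5% of all 11899 genes.

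Other plasma proteins of the list were near level. The fibrinogen genes Fga, Fgb and Fgg had ratios of -0.19, -0.16 and -0.22 in OGA-KO, Crp had -0.09 and C3 had 0.12. Haptoglobin (Hp) and hemopexin (Hpx) lay between, at 0.79 and 0.61 in OGA-KO and 0.24 and 0.11 in control. Neutrophils also express Lcn2, so their markers are given beside it: 4 of 13 listed neutrophil genes were measured, and they summed to 5.43 CPM at 14 days and 5.60 CPM at 28 days in OGA-KO. In control these sums were 6.37 and 3.21 CPM. The Kupffer cell list, 14 genes of liver macrophages, had medians of 0.15 in OGA-KO and -0.01 in control. The part of these cells, and of whatever brought pancreas transcripts into the OGA-KO library of day 28, in the acute phase ratios was not tested.

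**Figure D3:**
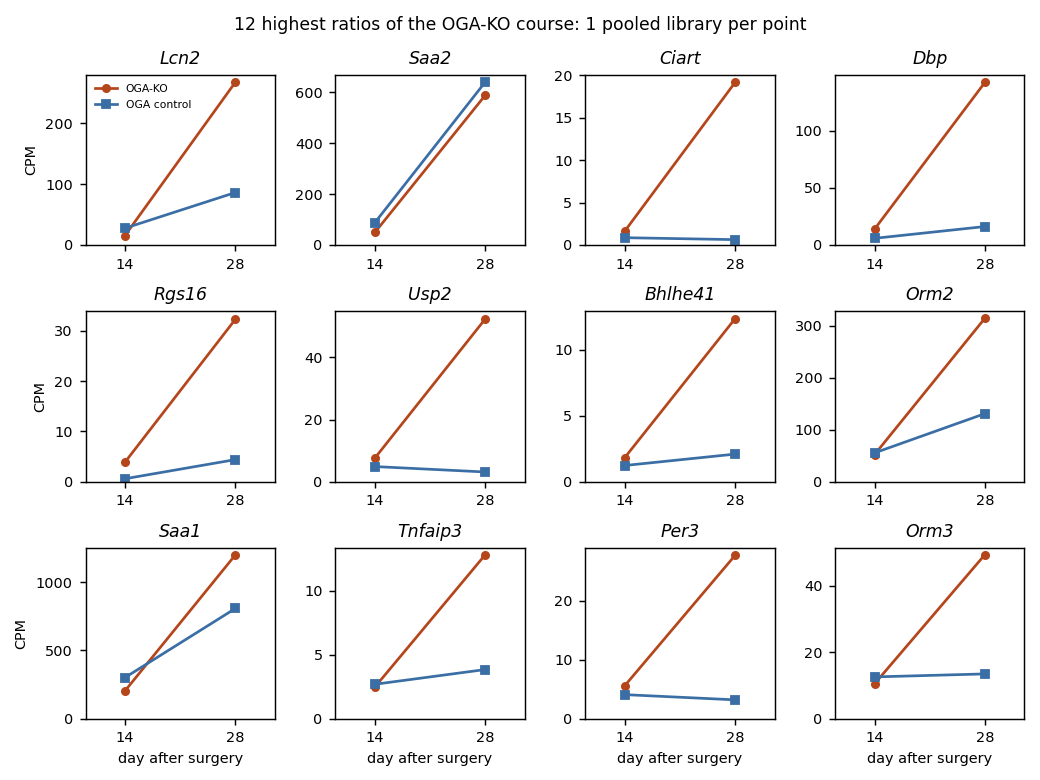
CPM at 14 and 28 days for the 12 genes with the highest ratios of the OGA-KO course among genes with at least 10 CPM, with 1 pooled library per point; red circles are OGA-KO and blue squares OGA control, and each panel has its own vertical axis from 0. In Ciart, Usp2 and Per3 the control line runs level or down while the OGA-KO line climbs, and in Saa2 both lines climb, from 49.0 to 589 CPM in OGA-KO and from 87.5 to 641 CPM in control.

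Tnfaip3, which encodes a brake on NF-kB signalling, was the only one of the 12 highest genes outside the clock, acute phase and orosomucoid genes. It had 73 and 348 counts in OGA-KO (2.35, 2.01 to 2.77) and 72 and 110 in control (0.50, 0.07 to 0.97). The 14-day libraries of the 2 genotypes were at the same level, and OGA-KO at 28 days was the high one of the OGA libraries. The OGT control of 28 days, from a smaller library, had 181 counts, above the 110 of the OGA control.

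Among metabolic genes with many counts, several were 2-fold higher at 28 days in OGA-KO and level in control. Cyp2a5, a P450 enzyme of coumarin and nicotine oxidation, had 8445 and 19783 counts in OGA-KO (1.36, 1.32 to 1.39) and 7700 and 8577 in control (0.06). Reads can be shared with its near copy Cyp2a4, and the sum of both gave 1.30 and 0.06. Upp2, a uridine phosphorylase gene of liver, had 5526 and 12052 counts in OGA-KO (1.25, 1.21 to 1.30) and 3556 and 3883 in control (0.03). Cyp7a1, which sets the pace of bile acid production from cholesterol, had 1253 and 2760 counts in OGA-KO (1.27, 1.17 to 1.37) and 1499 and 1375 in control (-0.22). Thrsp, a nuclear protein linked to fatty acid synthesis, had 2636 and 5523 counts in OGA-KO (1.20) and 3263 and 3300 in control. The OGT control of 28 days, from a smaller library, held more counts than OGA-KO of Cyp2a5 (25235), Cyp7a1 (4798) and Thrsp (7786). Of Upp2 it held fewer (2024). High values of Cyp2a5, Cyp7a1 and Thrsp at 28 days were thus not particular to OGA-KO.

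The pathways of these genes did not share this size of ratio over the OGA-KO course. Cyp7a1 was the only one of 29 measured bile acid genes, and Thrsp the only one of 17 lipogenic genes, that was 2-fold higher, and none was 2-fold lower. The medians of these lists were -0.02 and 0.18. Fatty acid oxidation had a median of 0.01 and cholesterol synthesis one of -0.12, with -0.28 in control.

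Growth and signalling genes gave some of the largest differences between the courses. Myc, a transcription factor of cell growth, had 200 and 535 counts in OGA-KO (1.54, 1.31 to 1.79) and 216 and 122 in control (-0.91, -1.25 to -0.59). Cish, a feedback inhibitor that STAT5 induces, had 567 and 1191 counts in OGA-KO (1.20, 1.05 to 1.35) and 938 and 458 in control (-1.13, -1.29 to -0.97). For Myc the genotypes had like levels at 14 days and parted at 28 days. The OGT control of 28 days, with 889 counts of Myc, was however above OGA-KO. For Cish, OGA-KO was below control at 14 days, within 2-fold, and above it at 28 days. The difference between the Cish courses thus rests on the values of both days. Ccnd1, the cyclin of early G1 phase, had 1214 and 1734 counts in OGA-KO (0.64) and 915 and 587 in control (-0.73). With Ciart, Usp2, Per3 and Lcn2, Myc and Cish were the 6 highest differences between the courses among genes with at least 10 CPM.

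Genes of cell division itself had few counts. The 17 mitosis genes with a row, of 30 listed, summed to 52.4 CPM at 14 days and 47.6 CPM at 28 days in OGA-KO. The 13 of them that were measured had a median ratio of -0.15, and none was 2-fold apart. Mki67, a marker of cycling cells, had 69 and 35 counts in OGA-KO and 76 and 96 in control. The 28 measured DNA replication genes had a median of 0.06, and 0.17 in control.

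Genes that were lower at 28 days in OGA-KO formed a smaller set with smaller ratios. Mme, which encodes the membrane peptidase neprilysin, had 556 counts at 14 days and 206 at 28 days in OGA-KO, and 385 and 470 in control. Its ratio of -1.30 (-1.54 to -1.07) was the lowest among genes with at least 10 CPM, against 0.19 (-0.01 to 0.39) in control. Spon2, a secreted matrix protein gene, had 300 and 114 counts in OGA-KO (-1.25) and 247 and 167 in control (-0.65), so it was lower in both. Pitx3, a homeobox gene, had 299 and 128 counts in OGA-KO (-1.08) and 363 and 644 in control (0.73). Abtb2 and Lrfn3 had ratios of -1.04 and -0.99 in OGA-KO, and 0.27 and -0.09 in control. Asap2 had 615 and 288 counts in OGA-KO (-0.96) and 701 and 748 in control.

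Serpina1e, a gene for alpha-1 antitrypsin, had the most counts of the genes that were 2-fold lower, at 170063 and 76074 in OGA-KO (-1.03, -1.04 to -1.02) and 207746 and 170833 in control (-0.38). Serpina1a to Serpina1e are near copies between which reads can be split, so the single value is uncertain, and the 5 genes summed gave -0.25 in OGA-KO and -0.18 in control.

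Several genes of fasting and stress had ratios of opposite sign in the 2 genotypes, as did 44.5% of all 11899 genes. Igfbp1, a binding protein of insulin-like growth factors that insulin holds down, had 2037 and 932 counts in OGA-KO (-0.998, -1.11 to -0.89) and 624 and 2136 in control (1.68, 1.55 to 1.81). Its difference of -2.67 (-2.84 to -2.50) was the lowest among genes with at least 10 CPM. G6pc1, which releases free glucose from the liver cell, had 6996 and 3592 counts in OGA-KO (-0.83) and 7303 and 11546 in control (0.57). Gdf15, a stress hormone gene, had 316 and 150 counts in OGA-KO (-0.94, -1.24 to -0.66) and 229 and 452 in control (0.88, 0.65 to 1.12). For G6pc1 and Gdf15, as for Bmal1, the values at 14 days lay between those of the 28-day libraries.

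The fasting list as a whole had a median of -0.08 in OGA-KO and 0.07 in control, and 0 of its 12 measured genes met the 2-fold rule in OGA-KO. Pck1, the entry enzyme of glucose synthesis, had -0.06 and -0.05. The remaining genes among the 6 lowest differences were Pitx3, Cyp2c40, Slc17a8 and the clock gene Npas2. Cyp2c40, a P450 gene, had 707 and 369 counts in OGA-KO and 251 and 505 in control, and Slc17a8, a vesicular transporter gene, had 201 and 149 against 113 and 322.

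Genes that differ between male and female liver were described by 2 lists. Of 10 measured genes with higher female expression, of 23 listed, 9 had ratios above 0 in OGA-KO and 2 were 2-fold higher, where 0.748% of all genes were, with a median of 0.59 against 0.02 in control. Acot3, an acyl-CoA thioesterase gene, had 11 and 116 counts in OGA-KO (3.30, 2.63 to 4.57) and 9 and 17 in control. At 0.37 CPM at 14 days and 4.28 CPM at 28 days in OGA-KO, Acot3 was measured only through its high library. Tox, a nuclear factor, had 83 and 189 counts in OGA-KO and 59 and 87 in control. Of 21 measured genes with higher male expression, 14 had ratios below 0 in OGA-KO and 1, Cspg5, was 2-fold lower, where 0.348% of all genes were, with a median of -0.13. In control 19 of 22 were above 0, 5 were 2-fold higher, where 0.522% of all genes were, and the median was 0.26. These 5 were Moxd1, below 1 CPM in OGA-KO, and Mup1, Mup11, Mup12 and Mup20, copies that share reads and are not separate findings. The Mup genes had ratios of 1.22, 1.28, 1.49 and 1.11 in control and 0.68, 0.85, 0.64 and 0.78 in OGA-KO. The major urinary protein genes, pheromone carriers of male mice whose copies share reads, summed over 20 genes to ratios of 0.04 in OGA-KO and 0.39 in control. All mice were male.

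Globin genes had lower values at 28 days in both genotypes, and matrix genes were mixed. The 4 alpha and beta globin genes, which mark red cells and share reads among copies, summed to 4807 and 2422 counts in OGA-KO (-0.86) and 4078 and 2659 in control (-0.71). Hba-a1 alone was 2-fold lower in OGA-KO, at -1.03 (-1.18 to -0.89). The matrix and activated stellate cell list had medians of -0.28 in OGA-KO and -0.24 in control, with 18 of 27 and 24 of 28 genes below 0 and none 2-fold apart. The summed CPM of the list went from 2294 to 2212 in OGA-KO and from 2352 to 2385 in control. Lgals1 at 0.61 and Acta2, the smooth muscle actin gene, at 0.55 were the highest of the list in OGA-KO. Col1a1, a fibrillar collagen gene, had 829 and 430 counts in OGA-KO (-0.82, -0.99 to -0.65) and 464 and 409 in control (-0.28). In bulk tissue, fewer cells of a type and less RNA per cell cannot be told apart.

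No gene of the folding response of the endoplasmic reticulum was 2-fold apart in OGA-KO. Of its 22 genes, 19 had ratios below 0, with a median of -0.15 against -0.01 in control. Creld2, Sdf2l1 and Manf, which assist protein folding, were at -0.57, -0.56 and -0.52, while Xbp1, a transcription factor of the same response, was at 0.48. The 12 measured integrated stress response genes had a median of -0.25, and 5 of them were above 0. The only one that was 2-fold apart was Nupr1, a stress-induced nuclear protein gene, which was higher, with 24 and 49 counts in OGA-KO (1.09, 0.43 to 1.93) and 11 and 20 in control. At 0.81 CPM at 14 days and 1.81 CPM at 28 days in OGA-KO, Nupr1 was measured only through its high library. Trib3, a pseudokinase gene, was at 0.68, and Asns, the asparagine synthetase gene, at -0.49, with -1.14 in control. Atf5, a transcription factor of this response, had 16202 and 8577 counts in OGA-KO (-0.79, -0.83 to -0.75) and 10975 and 11296 in control.

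The enzymes of O-GlcNAc cycling were near level over the course. Ogt had 2051 and 1964 counts in OGA-KO (0.07, -0.02 to 0.16) and 1798 and 2021 in control (0.07). Oga transcripts, of which reads outside the deleted part and from other cells can remain, had a ratio of 0.30 (0.06 to 0.53) in OGA-KO and 0.11 (0.01 to 0.21) in control. None of the 10 measured genes of O-GlcNAc and hexosamine metabolism was 2-fold apart, and they ranged from -0.18 for Nagk to 0.31 for Amdhd2, enzymes that salvage and deacetylate the amino sugar.

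Zonation genes and hepatocyte transcription factors held no gene 2-fold apart. The 20 pericentral and 20 periportal genes had medians of 0.13 and 0.14 in OGA-KO, and the 25 urea cycle and amino acid genes 0.16. Of 21 hepatocyte transcription factors, 17 had ratios above 0 and none was 2-fold apart, the highest being Onecut1 with 434 and 783 counts in OGA-KO (0.98, 0.81 to 1.15) and 561 and 562 in control. The 23 interferon response genes, with medians of -0.11 and -0.12 in the 2 genotypes, also held none.

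Other immune cell lists had few members with a row. Of 9 measured recruited macrophage genes, of 17 listed, 2 were 2-fold higher in OGA-KO, where 0.748% of all genes were. These were the chemokine gene Ccl2 at 2.15 (1.30 to 3.72), on 8 and 39 counts, and S100a6 at 1.12 (0.61 to 1.74). At 0.27 CPM at 14 days and 1.44 CPM at 28 days in OGA-KO, Ccl2 was measured only through its high library. The other way, 6 of the 9 had ratios below 0, and the median of the list was -0.26. The 2 measured B and plasma cell genes, Cd74 and Xbp1, had ratios of 0.61 and 0.48 in OGA-KO and -0.03 and -0.27 in control. The neutrophil list had a median of -0.0032 in OGA-KO and -1.14 in control, on counts of 5 to 53 a gene.

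**Figure D4:**
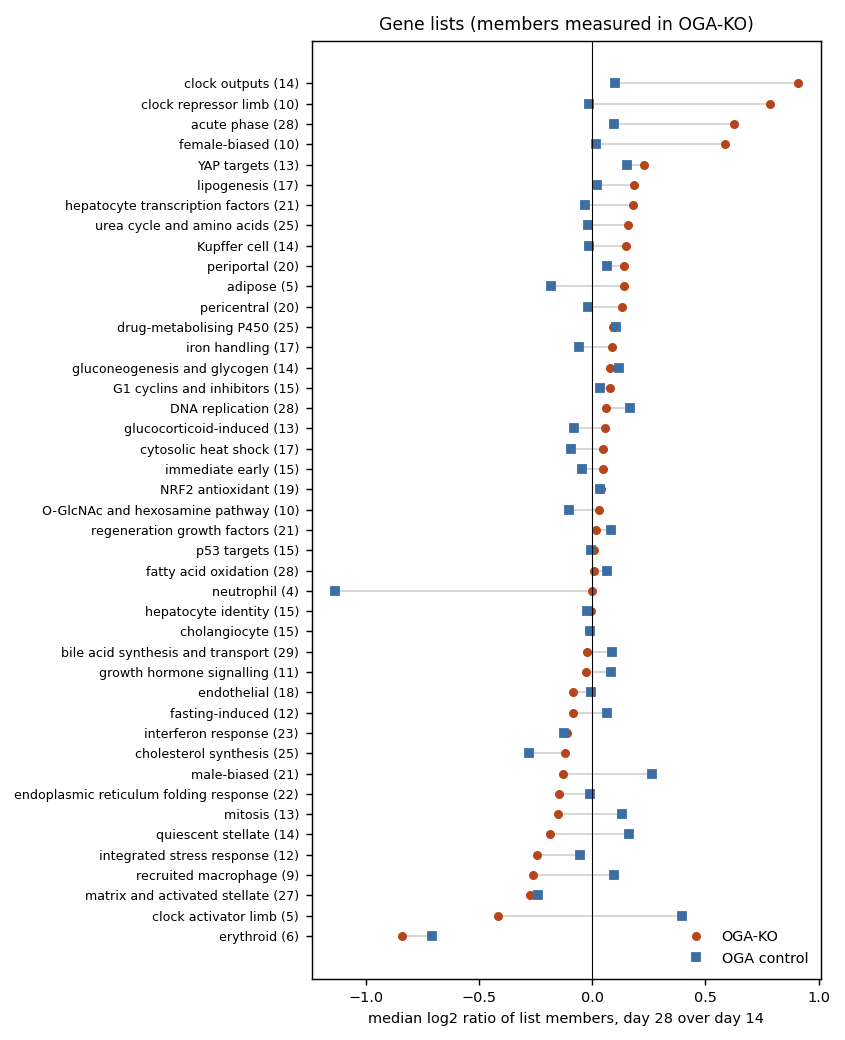
Median log2 ratio of day 28 over day 14 for 43 gene lists in OGA-KO (red circles) and OGA control (blue squares), ordered by the OGA-KO median, with the number of measured members in brackets. The clock outputs at 0.91, the clock repressor limb at 0.79 and the acute phase list at 0.63 lie highest in OGA-KO, the erythroid list at -0.84 and the clock activator limb at -0.42 lie lowest, and most other lists lie within 0.3 of 0; the neutrophil list rests on 4 genes of low count.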

How the data were processed

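Messenger RNA libraries were analysed from the deposited counts of reads per Ensembl gene, with 1 column per pooled library; the authors' CPM table holds the same counts divided by library size and was not used for ratios. Per the submitters' processing notes, STAR, Subread and edgeR were used with build mm39; versions and the row filter were not given in the sources used here. Symbols came from GENCODE M21 (12019 of 12027 rows). Ratios used edgeR 4.0.16 (R 4.3.3) TMM sizes over the 4 OGA libraries and a prior count of 2, with exact Clopper-Pearson 95% intervals. A count of 0 allows 3 counts, or 0.101 to 0.112 CPM. The day effect over both genotypes used edgeR's quasi-likelihood test, with DESeq2 1.42.0 as alternative. Scripts were tested on simulated data with known folds.

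Named were Oga, Ogt, the 12 highest and 12 lowest ratios at 10 CPM, the 6 genes with most counts past 2-fold each way, the 6 highest and 6 lowest differences between courses, all clock genes, up to 4 genes of each other list and genes past the day test; further genes named were chosen after their values were seen. Of the genes under this rule, 2 are not reported here. Members and the 47 lists were chosen with earlier results of these data known.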

Additional observations from a re-analysis of the deposited data

Results flagged for a closer look

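The 4 genes given here were 2-fold apart in opposite directions in the 2 genotypes; with 1 pooled library per group, the difference between the courses was not tested. Cish, the feedback inhibitor described above, had a difference of 2.32 (log2, OGA-KO course minus control course). Cyp21a1, the steroid 21-hydroxylase gene, had 91 counts at 14 days and 182 at 28 days in OGA-KO and 175 and 77 in control, a difference of 2.37. Myom3, a gene of the muscle M-band, had 27 and 57 counts in OGA-KO and 49 and 25 in control, a difference of 2.15 on low counts. Slc34a2, a phosphate transporter gene, went the other way with 99 and 41 counts in OGA-KO and 69 and 159 in control, a difference of -2.19.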

How the results depend on the processing

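The counts of genes 2-fold apart depend on the cut-offs. With at least 5 CPM they were 46 higher and 8 lower in OGA-KO, 30 and 13 in control, and 85 and 50 for the difference between the courses. At 1.5-fold they were 366 and 246, 240 and 220, and 592 and 546. With a prior count of 10 the lower genes numbered 19, 27 and 94. With the counting interval wholly beyond 1.5-fold, the lower genes numbered 21 in OGA-KO and 27 in control, and the difference held 97 higher and 60 lower. The day effect passed 2 genes by library totals, 4 without filterByExpr, 4 over all 6 libraries with a term for line and 15 by DESeq2. DESeq2 size factors, upper-quartile factors, no CPM filter and keeping the pancreas list in left the counts within 1.5 times, as did leaving out rows at 0 in the other 3 OGA libraries, an alternative chosen after seeing the data. The clock and acute phase counts of 4, 6 and 8 were equal under DESeq2 size factors, library totals, a prior count of 10 and 5 CPM. Of the 190 named genes, library totals moved 11 ratios and a prior count of 10 moved 5. No ratio of at least 2-fold changed its sign, and smaller ratios were not checked for sign. No paired analysis was possible because each group is 1 library without a replicate number. Depth limits genes near 1 CPM, with about 27 counts.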

Other observations

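Beyond the groups above, genes known from cytokine and NF-kB signalling were among the 88 that were 2-fold higher in OGA-KO; they were chosen after their values were seen. Cxcl1, a neutrophil-attracting chemokine, had 263 counts at 14 days and 705 at 28 days in OGA-KO and 1003 and 1029 in control, so OGA-KO at 14 days was the low library. Ccl2, a monocyte chemokine, had 8 and 39 counts in OGA-KO and 14 and 31 in control. The feedback genes Nfkbiz and Zc3h12a had 383 and 803, and 156 and 336 counts in OGA-KO, against 362 and 409, and 178 and 168 in control. Tlr2, a receptor of bacterial lipoproteins, had 52 and 200 counts in OGA-KO and 66 and 95 in control.

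The retinoic acid hydroxylase Cyp26a1 had 302 and 699 counts in OGA-KO (1.33) and 418 and 298 in control (-0.58), also chosen after its values were seen. Ppargc1b, a coactivator of mitochondrial genes, had 156 and 341 counts in OGA-KO (1.25) and 106 and 126 in control. Among genes of low count, Tcf24 had 154 and 26 counts in OGA-KO (-2.35) and 34 and 66 in control, and Dab1 was lower in both genotypes, with 81 and 17 counts in OGA-KO and 61 and 7 in control. The adipose marker Cfd had 3 and 46 counts in OGA-KO and 5 and 8 in control, and Reg3b, a secreted lectin gene outside the pancreas list, had 28 counts in OGA-KO at 28 days and 0 in the other 5 libraries. Of the 21 rows at 0 in the other 3 OGA libraries, 20 were on the pancreas list. Reg3b shares their pattern but is counted among the 88 higher genes. Whether its reads came with the pancreas transcripts was not tested.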
